A study of Mus musculus with 12 samples.

Results

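Of the 12 libraries in the series, 6 are described here: C2C12 mouse myoblasts that received a non-targeting control siRNA, sequenced either uninduced (3 libraries) or on day 5 of myogenic induction (3 libraries). They were chosen by their labels alone, as all libraries with the control siRNA. C2C12 is an established line of mouse skeletal muscle myoblasts, labelled wild type. All 6 cultures were transfected with Lipofectamine 3000 in DMEM with 10% fetal bovine serum. Uninduced cells were harvested 24 hours after transfection, and induced cells were moved at that time to DMEM with 1% horse serum, renewed daily, for 5 days. The other 6 libraries have the same pair of conditions with an siRNA against Zfp143, the gene of a zinc finger transcription factor, and serve here as a second set of libraries beside the control response. They also entered the model behind every test, so that they bear on the gene filter and the estimate of spread. Induction therefore differs from the uninduced state in medium, in serum, in time in culture and in time since transfection, and these cannot be told apart. Polyadenylated RNA was read with a kit that does not keep the strand, so genes that overlap on opposite strands cannot be told apart either. Whether the replicates of a group were grown apart is not stated in the labels, so p-values measure only the spread between these samples, which may be technical.

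Myoblasts are committed precursors of skeletal muscle. When serum is withdrawn, the MyoD family of transcription factors switches on myogenin, the cells leave the cell cycle, and they fuse into multinucleated myotubes that build sarcomeres, the repeating units of contraction. Fibres of adult muscle later exchange embryonic for adult isoforms and gather acetylcholine receptors under the nerve ending. In C2C12 cultures part of the cells do not fuse and remain as mononucleated reserve cells, and bulk RNA averages over both. In such bulk libraries fewer cells of a type and less RNA per cell cannot be told apart.

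The 6 libraries held between 18.2 M and 19.1 M estimated counts (M, 1000000). Induced libraries had 14294 to 14392 genes with at least 10 counts. Among the uninduced ones, replicates 1 and 2 had 13177 and 13115 such genes, and replicate 3 had 12753. Uninduced replicate 3 stood apart: mitochondrially encoded RNA made up 6.02% of its counts against 2.63% and 2.90% in replicates 1 and 2, and the median level of the shortest quintile of genes by transcript length (up to 1371 bases) lay 0.42 above its group on the log2 scale. The longest quintile (from 4483 bases) lay 0.28 below (median deviation -0.28). Results are therefore given with and without it where its removal matters. The Zfp143 level in these control cells was 30.3 ± 8.58 CPM (counts per M, SD, n = 3) uninduced and 19.4 ± 0.221 CPM induced. In the first principal component of all 12 libraries, with 76.8% of the variance, the uninduced and the induced libraries lay on opposite sides. As for the label, the markers of undifferentiated myoblasts Myod1, Myf5, Vcam1, Cdh15 and Itga7 were all detected in the uninduced libraries, as were markers of other cell types. Of these myoblast markers only Myf5 was lower after induction. Myod1, Vcam1, Cdh15 and Itga7 were higher, so they do not single out the uninduced state. Of the leukocyte list Cd14 was at 21.6 TPM uninduced and 19.5 TPM induced, and Ptprc, Adgre1 and Cd3e had no counts in any of the 6 libraries. Of the fibroblast list 5 members were tested and all 5 were higher after induction, as given below with the matrix genes, while Thy1 and Tcf21 had no counts. Of the endothelial list Pecam1 was called higher, with 5 counts in all uninduced libraries together and 26 in the induced ones, and Emcn had none.

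Most of the genes tested changed. Of 15030 genes tested with edgeR's quasi-likelihood test, 4992 (33.2%) were higher and 4644 (30.9%) lower after induction at an adjusted p under 0.05. These shares are the background for the counts of list members below. Against a fold change of 2, 2514 genes (16.7%) were higher and 1304 (8.68%) lower. Rises were also larger than falls: the median log2 change was 1.53 among genes called higher and -0.97 among those called lower. Fitted log2 changes over 8 were found for 231 genes called higher, and 16 were called lower by as much. These 2 counts include genes without counts in a group, whose fitted change rests on the prior count and is no bound. Actn2, for example, was fitted at 10.19, whereas its lower bound was 46.2-fold. Genes higher by more than 2-fold made up 1.97% ± 0.366 (SD, n = 3) of all transcripts, as TPM (transcripts per M), in the uninduced libraries and 18.6% ± 0.183 in the induced ones. Genes lower by more than 2-fold went from 25.4% ± 0.394 to 9.81% ± 0.204. Fold changes below are of CPM scaled by TMM factors, under which the median gene moved by 0.03 on the log2 scale, whereas the median was 0.21 when counts were scaled by library size alone. TPM, used below for levels, is a share of transcripts, and the median gene's TPM rose by 0.41 on the log2 scale, so that a gene can fall in scaled CPM while its TPM does not.

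**Figure D1:**
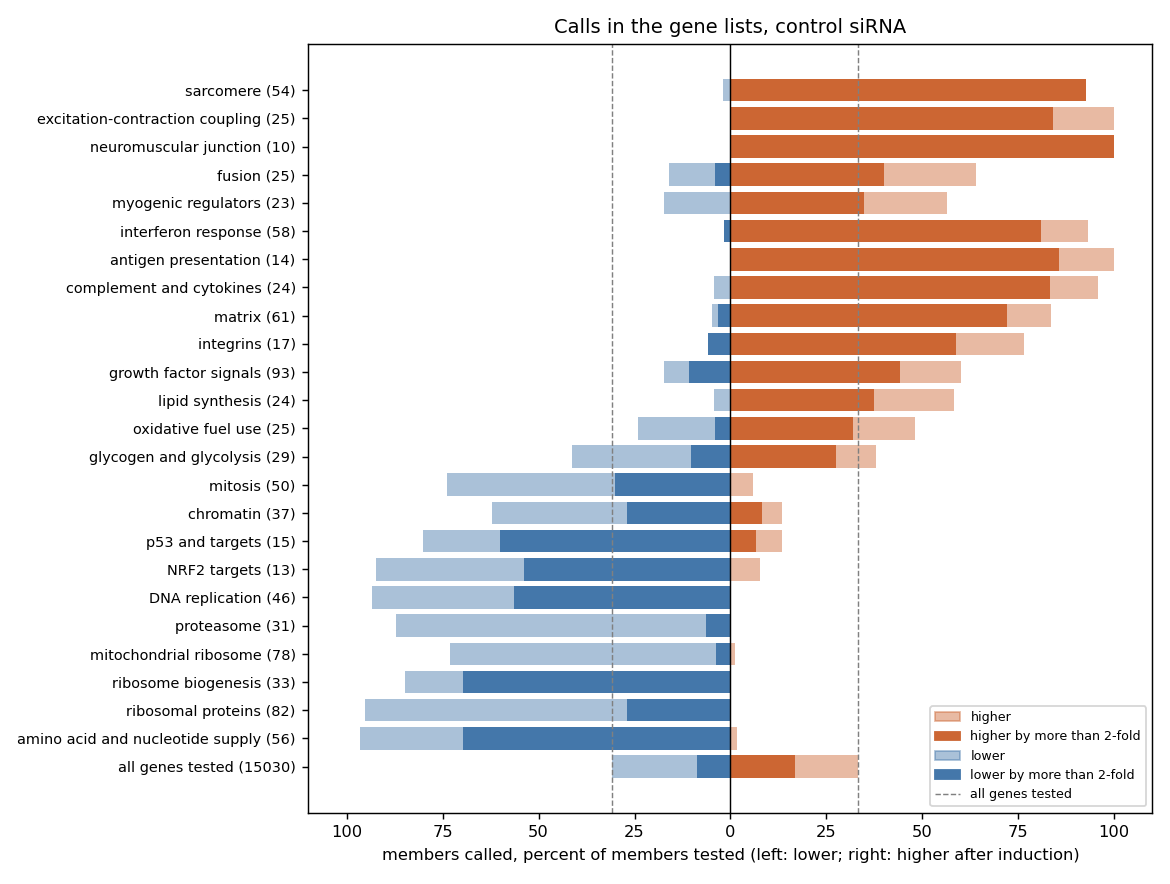
Share of the tested members of each gene list (number tested in parentheses) that were called higher (right) or lower (left) after induction with control siRNA, in percent, with calls past 2-fold in full colour. Dashed lines mark all genes tested, 33.2% higher and 30.9% lower; the sarcomere bar stands at 50 of 54 members higher and the bar for amino acid and nucleotide supply at 54 of 56 lower.

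Within the MyoD family, the late factor myogenin rose most and the early factor Myf5 fell. Myog, the factor that drives terminal differentiation, was at 3.57, 3.91 and 2.79 TPM in the 3 uninduced libraries and at 488, 523 and 499.5 TPM in the induced ones. Its log2 fold change was 6.76 (SE 0.17, adjusted p = 4.2e-13). Every induced library lay far above every uninduced one. Myod1, which specifies the lineage, rose from 7.51, 7.94 and 4.31 TPM to 71.7, 74.5 and 62.9 TPM, a log2 change of 2.99 (SE 0.22, adjusted p = 2.9e-08). Myf5, the family member of proliferating myoblasts, fell from 50.5, 73.0 and 47.3 TPM to 30.043, 32.8 and 31.4 TPM (log2 change -1.25, SE 0.15, adjusted p = 3.5e-06). The groups of these 3 genes did not overlap. Among the Mef2 factors, which act with MyoD proteins on muscle genes, Mef2c rose from 0.0828 ± 0.129 to 5.61 ± 1.82 TPM (SD, n = 3) and Mef2a from 35.1 to 118 TPM, a mean over 3 libraries as in all later pairs of TPM values. The muscle methyltransferase gene Smyd1 rose from 0.138 to 38.3 TPM. In all, 13 of the 23 tested regulators were higher and 4 lower, the latter with Myf5, Eya3, Eya4 and the coactivator gene Mrtfa. Eya4 lost its call with library size as scaling (edgeR adjusted p = 0.34) and, narrowly, with DESeq2 size factors (edgeR adjusted p = 0.0509). It also lost it without uninduced replicate 2 or 3 or induced replicate 1 or 2.

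Genes of factors known to hold back differentiation did not move one way. Of 17 tested, 10 were higher and 4 lower, against 33.2% and 30.9% of all genes. Id proteins bind E proteins and keep them from MyoD. Id1 (log2 change -0.93 ± 0.15, SE) and Id2 (-1.63 ± 0.22) fell, whereas Id3 rose (1.08 ± 0.17). The Notch effector gene Hes1 rose from 17.5, 13.7 and 9.65 TPM to 88.7, 76.5 and 105 TPM (log2 change 2.32 ± 0.21, SE), and Hdac5, a class IIa deacetylase that represses Mef2, from 7.18 to 34.4 TPM. Snai2 fell (-0.75 ± 0.13) and Zeb1 rose (0.82 ± 0.11).

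**Figure D2:**
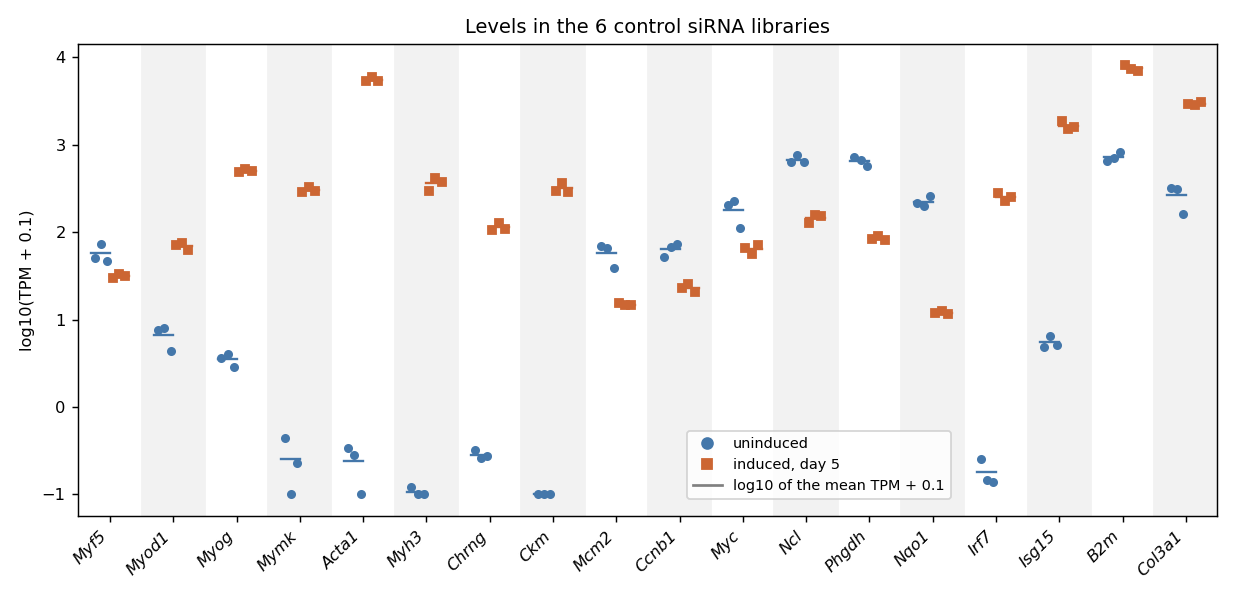
Level of 18 genes in each of the 6 control siRNA libraries, as log10(TPM + 0.1); circles are uninduced, squares induced libraries, and lines mark log10 of the group mean + 0.1. Myog goes from about 3 to about 500 TPM, Acta1 and Ckm start at or near 0, and Mcm2, Ncl, Phgdh and Nqo1 lie lower in every induced library.

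Sarcomere genes rose together, many from no detectable RNA. Of 54 tested members, 50 were higher, all of them by more than 2-fold. Lower was 1, the tropomodulin gene Tmod4, or 3 members without uninduced replicate 3. The median log2 change was 9.66, or 7.77 with the 11 genes that had no uninduced counts set at their lower bound, against 0.03 over all genes tested. Their summed level went from 877, 895 and 566 TPM to 23684, 27992 and 23980.4 TPM. Acta1, skeletal muscle alpha actin, was at 0.240, 0.179 and 0 TPM uninduced and at 5344, 5895 and 5318 TPM induced (log2 change 14.86, SE 0.75, adjusted p = 1.1e-12). It was then among the 12 genes of highest TPM. Actc1, the cardiac alpha actin that embryonic muscle also makes, had 1 count in all uninduced libraries together and 535, 661 and 539 TPM after induction, a 21669-fold (counting interval at 95%: 3889 to 855917) higher summed count.

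The RefSeq promoters of Acta1 and Mybph show 2 of the 6 kinds of motif that were looked for. Given are the bases from 250 to 21 before the start, 5′ to 3′ on the gene's strand, in the GRCm38.p6 build of the RefSeq table, with matches in capitals: the E-box CAGCTG, which the MyoD family can bind and which reads the same on both strands, and in Acta1 also a CArG box, the motif of serum response factor. They were chosen after the matches were seen.
Acta1, chr8:123894796-123895025, minus strand: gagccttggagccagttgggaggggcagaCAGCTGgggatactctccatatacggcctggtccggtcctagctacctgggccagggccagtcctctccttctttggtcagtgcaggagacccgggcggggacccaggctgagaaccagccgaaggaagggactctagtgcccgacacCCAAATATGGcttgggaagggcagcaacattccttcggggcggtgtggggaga
Mybph, chr1:134193198-134193427, plus strand: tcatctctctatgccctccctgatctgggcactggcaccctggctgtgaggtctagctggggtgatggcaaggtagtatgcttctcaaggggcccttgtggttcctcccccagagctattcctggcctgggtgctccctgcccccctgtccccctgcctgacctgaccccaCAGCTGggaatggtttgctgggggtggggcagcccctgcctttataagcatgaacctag
In Acta1 the E-box begins 221 and the CArG box 73 bases before the start, and in Mybph the E-box begins 79 bases before it. In the 250 bases before the start, CAGCTG occurred in 16 of 43 sarcomere genes with a promoter in the table (37.2%), in 21.9% of the genes higher by more than 2-fold, in 13.3% of those lower by more than 2-fold and in 14.7% of all 10384 tested genes with a promoter there. The CArG box was in 11.6% of the sarcomere promoters and 1.48% of all, and the MEF2 motif in 9.30% and 0.559%. These are matches of letters on either strand, not binding sites, and no test was made of these shares. Mybph itself, a myosin-binding protein gene, had 1 count uninduced and 547, 639 and 546 TPM induced, 29742-fold (counting interval at 95%: 5338 to 1174800.0) more by summed counts.

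The myosin heavy chains, motors of the thick filament, held embryonic and adult isoforms side by side. The adult fast gene Myh1 had no counts uninduced and 183, 259.9 and 233 TPM induced, at least 5577-fold higher when each uninduced library is set at 3 counts, as in all later lower bounds. Myh4, another adult fast isoform, was at least 1047-fold higher (30.5, 51.4 and 45.6 TPM). The embryonic gene Myh3 had 2 counts uninduced and reached 294, 421 and 374 TPM, 40855-fold (counting interval at 95%: 11309 to 337356) more by summed counts. The slow isoform Myh7 rose from 0, 0.0422 and 0.0168 TPM to 35.5, 49.6 and 43.045 TPM (log2 change 10.51 ± 0.68, SE), and the perinatal gene Myh8, with no uninduced counts, reached 5.71 TPM. Per length, Myh3 and Myh1 were thus the highest sarcomeric heavy chains in every induced library, with Myh3 above Myh1 in all 3. Their coding sequences are alike, and how the quantification split reads shared among these neighbouring genes was not tested.

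Light chains, troponins and scaffold genes followed. The light chain gene Mylpf rose from 0.307, 0.378 and 0.573 TPM to 2446, 2891 and 2465 TPM (log2 change 12.23 ± 0.41, SE), and Myl1, with 2 counts uninduced, reached 2099, 2538 and 2126 TPM. Both are fast-fibre light chains of the thick filament. The troponins, the calcium switch of the thin filament, rose in fast and slow forms alike: fast Tnnt3 from 0.412 to 1136 TPM, slow Tnnt1 from 0.272 to 564 TPM, and Tnnt2, the cardiac and embryonic form, from 4.56 to 742 TPM. Fast Tnni2 ended at 1016 TPM and slow Tnni1 at 840.3 TPM. Titin (Ttn), which spans the sarcomere from Z-disc to M-band, rose from 0.0297, 0.0240 and 0.0245 TPM to 14.8, 25.018 and 25.011 TPM (log2 change 9.68 ± 0.41, SE), and nebulin (Neb) from 0.0469 to 43.3 TPM. The fast alpha actinin gene Actn3 of the Z-disc rose from 1.48 to 219 TPM, whereas Actn2, with no uninduced counts, ended at 4.23 TPM. Not every member moved: the filamin gene Flnc was at 171, 161 and 60.2 TPM and then at 118, 156 and 158 TPM (log2 change -0.25, adjusted p = 0.32, but -0.48 and 0.015 without uninduced replicate 3), and the myosin light chain kinase gene Mylk2 was at 6.33 and 9.79 TPM (adjusted p = 0.37).

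Both fusogens, the membrane proteins that merge myoblasts, rose from near 0. Mymk (myomaker) was at 0.341, 0 and 0.126 TPM uninduced and at 288, 332 and 294 TPM induced (log2 change 10.60 ± 0.56, SE, adjusted p = 3.3e-13). Mymx (myomixer) had 1 count uninduced and 153, 137 and 133 TPM induced, 1521-fold (counting interval at 95%: 273 to 60099.7) more by summed counts. The rest of the fusion list was mixed, with 16 of 25 members higher and 4 lower. The muscle cadherin gene Cdh15 rose from 5.98 to 46.5 TPM and Bin1, a membrane-bending protein of the T-tubules, from 79.3 to 482 TPM. The muscle caveolin gene Cav3, without uninduced counts, was at least 28.4-fold higher. Elmo1, part of a Rac activator, fell from 6.12, 5.50 and 3.09 TPM to 0.649, 0.418 and 0.593 TPM (log2 change -3.44 ± 0.26, SE), and the actin regulator genes Wasl and Nckap1 fell by less (-0.45 and -0.52), calls that were lost when only library size was scaled (edgeR adjusted p = 0.13 and 0.059).

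The machinery that couples the membrane signal to calcium release rose in all 25 tested members, 21 of them by more than 2-fold, with a median log2 change of 4.59. Cacna1s, the voltage sensor of the T-tubule, had 3 counts uninduced and reached 19.5, 27.1 and 25.5 TPM. Ryr1, the calcium release channel of the sarcoplasmic reticulum, rose from 0.105, 0.0705 and 0.0373 TPM to 21.8, 31.8 and 32.7 TPM (log2 change 8.22 ± 0.35, SE). The calcium pump gene Atp2a1, the fast-fibre form, rose from 0.361 to 176 TPM and the widely expressed Atp2a2 from 247 to 669 TPM, so that Atp2a2 stayed the higher of the pair. Of the calsequestrins, which store calcium, the slow-type Casq2 reached 273 TPM from 0.0415. The pump inhibitor gene Mrln (myoregulin) rose to 22.6 TPM, whereas Sln (sarcolipin) had no counts in any of the 6 libraries. The muscle sodium channel gene Scn4a had no uninduced counts and reached 4.79, 6.60 and 7.18 TPM.

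Genes of the nerve-muscle contact rose as well: 10 of 10, all by more than 2-fold. The receptor subunit gene Chrna1 was already at 53.7, 62.8 and 47.040 TPM and rose to 196, 249 and 208 TPM (log2 change 1.58 ± 0.13, SE, adjusted p = 5.5e-08). Chrng, the subunit of the fetal receptor, rose from 0.225, 0.160 and 0.172 TPM to 106, 129 and 108 TPM (log2 change 8.79 ± 0.39, SE). Its adult counterpart Chrne held at most 0.35% of the pair's TPM in any library. The receptor-clustering kinase gene Musk rose from 4.31 to 21.8 TPM, its activator Dok7 from 0.261 to 10.2 TPM, and agrin (Agrn) from 10.1 to 110.3 TPM. The promoter of Chrna1 holds CAGCTG at 2 places, 92 and 44 bases before the start. It is shown because this gene has both matches close together.
Chrna1, chr2:73580359-73580588, minus strand: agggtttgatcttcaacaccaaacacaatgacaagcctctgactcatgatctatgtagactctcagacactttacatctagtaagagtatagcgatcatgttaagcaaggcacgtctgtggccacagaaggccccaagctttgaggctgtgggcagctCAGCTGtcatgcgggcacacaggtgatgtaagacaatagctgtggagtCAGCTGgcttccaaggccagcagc
In the dystrophin complex, which ties the cytoskeleton to the matrix, 15 of 22 members were higher. Dystrophin (Dmd) had no uninduced counts and only 0.456, 0.339 and 0.760 TPM after induction, while its homologue Utrn was at 34.8, 37.3 and 40.3 TPM. Dystroglycan (Dag1) rose from 22.2, 19.9 and 9.71 TPM to 129, 141 and 151 TPM (log2 change 2.66 ± 0.14, SE).

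Many muscle proteins have a near relative that most cells use. For 36 pairs of a muscle gene and a relative, the share of the muscle gene in the pair's TPM was followed. Not every relative is a widespread form: Chrng, beside Chrne, is the fetal receptor subunit, and Ryr3, beside Ryr1, was at 0.817 TPM uninduced. Of the 35 pairs with a share in every library, 15 gained more than 10 percentage points, 3 lost more than 10, and 17 moved by less. Acta1 took 0.0239, 0.0202 and 0% of the Acta1 and Actb total in the uninduced libraries and 81.046, 83.030 and 80.965% in the induced ones. Ckm, muscle creatine kinase, held no share beside Ckb before and 78.5, 81.5 and 79.9% after, although Ckb also rose (4.45 ± 0.24). Phosphofructokinase went from 11.8, 13.5 and 12.005% to 53.7, 58.3 and 56.2% Pfkm, with Pfkl lower. For these 3 pairs the uninduced and the induced libraries did not overlap. With 3 against 3 libraries the exact two-sided permutation test cannot go below 0.1 (adjusted over the pairs, 0.121). Glycogen phosphorylase went from 2.07% ± 0.529 to 60.6% ± 2.52 Pygm (SD, n = 3), the ryanodine receptors from 8.35% ± 2.02 to 79.6% ± 0.827 Ryr1 beside Ryr3, and the tropomyosins from 23.3% ± 7.67 to 76.6% ± 1.68 Tpm2 beside Tpm4. Other pairs stayed mainly with the widespread form: Pgam2 reached 16.8% ± 2.17 beside Pgam1, Eno3 32.9% ± 1.90 beside Eno1, and Atp2a1 20.9% ± 0.331 beside Atp2a2. The muscle-specific share fell for the phosphorylase kinase subunit Phka1 beside Phka2 (from 61.3% ± 3.79 to 36.3% ± 2.31), for Mylk2 beside Mylk and for hexokinase Hk2 beside Hk1 (from 45.3% ± 0.565 to 30.5% ± 0.862). The muscle gene held more than 50% of the pair in 11 pairs after induction and in 3 uninduced. The 11 include Ckmt2 beside Ckmt1, the pair without a share in every library. They also include Fhl1 beside Fhl2, which held 66.9% already uninduced. Rpl3l, Tuba8 and Eef1a2, forms of mature fibres, stayed at or near 0% in all 6 libraries.

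**Figure D3:**
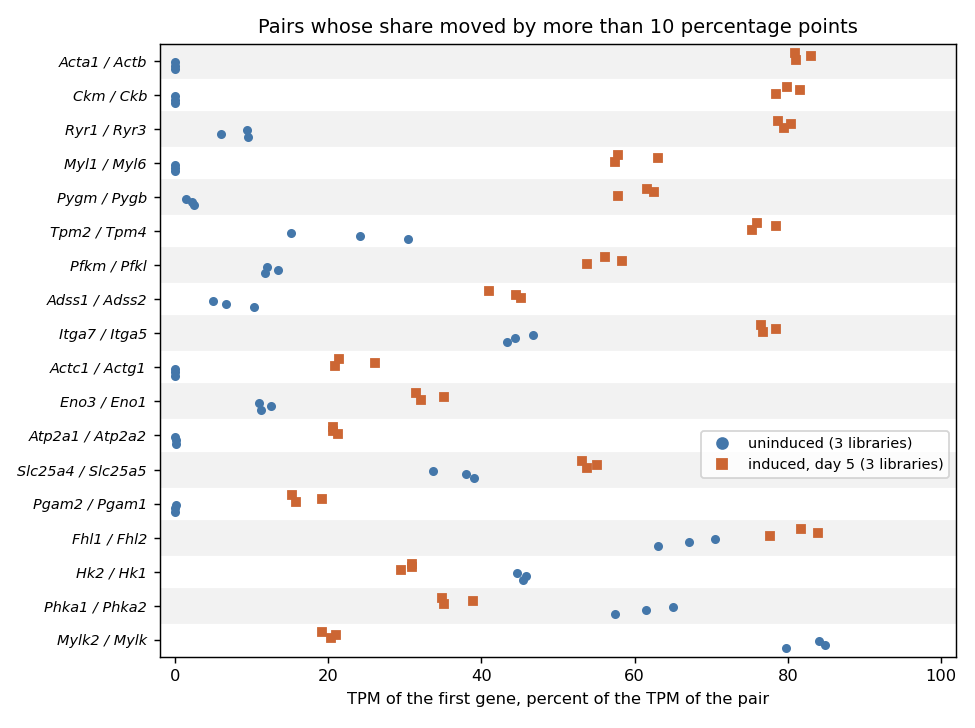
TPM of the muscle gene as a percentage of the TPM of the pair, for the 18 pairs that moved by more than 10 percentage points, in each uninduced (circles) and induced (squares) library. In 15 pairs the induced libraries lie to the right, with Acta1 and Ckm near 80%, and in Hk2, Phka1 and Mylk2 they lie to the left.

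Genes of energy metabolism moved in both directions. Of 6 creatine genes 5 were higher and 1, the creatine transporter gene Slc6a8, was lower (-0.68 ± 0.12). Ckm was at 296, 364 and 289 TPM from no counts (at least 1737-fold higher), and Gamt, a creatine synthesis enzyme, rose from 2.64 to 36.9 TPM. The oxygen store myoglobin (Mb) went from 2 counts to 111 TPM. Of 18 tested glycolysis genes, 5 were higher and 10 lower, and without uninduced replicate 3 12 were lower. Eno1 fell from 1342, 1096 and 1096 TPM to 661, 612 and 646 TPM (log2 change -1.39 ± 0.18, SE), and the lactate dehydrogenase gene Ldha by less (-1.02 ± 0.17), while Ldhb rose (1.87 ± 0.19). The basal glucose transporter gene Slc2a1 fell (-1.40 ± 0.15) and the insulin-responsive Slc2a4 rose only to 1.32 TPM. In oxidative fuel use, the fatty acid genes Cd36 (no uninduced counts, at least 51.993-fold higher), Cpt1a (1.90 ± 0.12) and Acadl (1.47 ± 0.10) rose. Ppargc1a, a coactivator of mitochondrial biogenesis, fell from 3.08, 4.22 and 2.22 TPM to 0.919, 0.974 and 1.08 TPM (log2 change -2.01 ± 0.22, SE), and so did Tfam (-1.14 ± 0.14), which maintains mitochondrial DNA. Of 78 mitochondrial ribosomal protein genes, 57 were lower, or 45 without uninduced replicate 3. RNA of the 13 mitochondrially encoded proteins made up 7.40% ± 2.89 of TPM uninduced and 7.19% ± 0.699 induced (SD, n = 3), a difference within the spread.

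Replication genes fell without exception of sign among those called. Of 46 tested members, 43 were lower, 26 by more than 2-fold, and none was higher, with a median log2 change of -1.49. Mcm2, part of the helicase that opens DNA, fell from 70.048, 65.4 and 38.981 TPM to 15.2, 14.4 and 14.4 TPM (log2 change -2.42 ± 0.12, SE, adjusted p = 3.3e-10). The lowest uninduced library still lay above all induced ones. Pcna, the sliding clamp, fell from 242 to 88.3 TPM, the loader Mcm10 from 17.4 to 3.20 TPM, and the nucleotide enzyme gene Dut fell too (-2.33 ± 0.13). Mcm5, another helicase subunit, is shown for its promoter, chosen after its match was seen: it holds the E2F motif TTTGGCGC on the opposite strand, and the motif (TTTCCCGC or TTTGGCGC, either strand) begins 149 bases before the start.
Mcm5, chr8:75109259-75109488, plus strand: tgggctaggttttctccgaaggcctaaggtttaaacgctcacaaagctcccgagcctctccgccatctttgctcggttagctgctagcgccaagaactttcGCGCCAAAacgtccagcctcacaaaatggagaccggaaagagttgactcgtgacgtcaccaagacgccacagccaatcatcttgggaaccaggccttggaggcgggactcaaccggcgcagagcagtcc
This gene fell from 48.7, 47.2 and 33.6 TPM to 14.7, 17.6 and 14.8 TPM. The E2F motif was in 6 of 37 replication promoters (16.2%), in 0 of 41 mitosis promoters and in 2.81% of all. The CHR motif of late cell cycle genes (TTTGAA or TTCGAA, either strand) was in 39.0% of mitosis promoters, 21.6% of replication promoters and 14.8% of all. Among genes lower by more than 2-fold the E2F motif was in 3.51% and the CHR motif in 16.3%. Among those higher by more than 2-fold the shares were 1.58% and 16.1%. These shares were not tested.

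Genes of mitosis fell less and with exceptions. Of 50 tested, 37 were lower, 15 of them by more than 2-fold, and 3 were higher, with a median log2 change of -0.84. Without uninduced replicate 3 the counts were 34 lower and 4 higher. Cyclin B1 (Ccnb1) fell from 52.1, 67.955 and 72.2 TPM to 22.956, 25.6 and 20.7 TPM (log2 change -1.93 ± 0.22, SE, adjusted p = 2.9e-06), and the condensin gene Smc2 from 29.1 to 9.70 TPM. Mki67, the proliferation marker, rose instead, from 6.66, 7.85 and 4.51 TPM to 11.4, 15.6 and 15.6 TPM (log2 change 0.80 ± 0.16, SE, adjusted p = 5.2e-04). Ccnb2 (1.01 ± 0.14) and the kinase gene Aurkb (0.61 ± 0.18) were the others that rose, and Cdk1 fell from 134 to 80.8 TPM. Mitotic RNA was therefore still present on day 5, with Top2a at 40.3, 48.5 and 48.994 TPM.

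The regulators of G1 moved in both directions, 12 of 30 higher and 13 lower, against 33.2% and 30.9% of all genes tested. Among the D cyclins, partners of Cdk4, Ccnd2 fell from 48.3, 51.7 and 28.6 TPM to 7.40, 6.75 and 8.78 TPM (log2 change -2.84 ± 0.12, SE), whereas Ccnd3 rose from 39.5, 35.996 and 22.1 TPM to 145, 154 and 143 TPM (1.70 ± 0.17, SE). Cdkn1a, the inhibitor p21 that myogenic cells use for cell cycle exit, was at 497, 418 and 247 TPM and at 363, 436 and 402 TPM, overlapping ranges (log2 change -0.30, adjusted p = 0.051). It was called lower without uninduced replicate 3 (-0.39, edgeR adjusted p = 0.0061) or without induced replicate 2 (-0.39, 0.037), and with all libraries kept by DESeq2 (adjusted p = 0.018), limma-voom (0.040) and edgeR with a length offset (0.023). Of the other inhibitors Cdkn2c rose from 7.58 to 29.1 TPM, and Cdkn2a and Cdkn2b had no counts in the 6 libraries. Myc fell from 204, 225 and 110.3 TPM to 64.964, 56.002 and 71.9 TPM (log2 change -1.96 ± 0.14, SE) and its antagonist Mxd4 rose from 4.19 to 38.8 TPM. The pocket protein genes Rb1 (0.67 ± 0.17) and Rbl2 (1.01 ± 0.12) rose and Rbl1 fell (-0.95 ± 0.16). Among p53 targets 12 of 15 were lower, with Mdm2, the p53 ubiquitin ligase, falling from 429 to 92.9 TPM, and Sesn1 rose (2.30 ± 0.14).

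The broadest fall was in genes for the supply of building blocks. Of 56 tested genes for tRNA charging, one-carbon metabolism, nucleotide synthesis and amino acid transport, 54 were lower, 39 by more than 2-fold, with a median log2 change of -2.08. Qars1 was the only one called higher (0.62 ± 0.12). Phgdh, the first enzyme of serine synthesis, fell from 719, 666 and 569 TPM to 84.4, 89.5 and 80.953 TPM (log2 change -3.42 ± 0.15, SE, adjusted p = 9.0e-11). Cth, which makes cysteine, fell from 216, 237 and 267 TPM to 1.80, 2.34 and 2.66 TPM (-7.22 ± 0.25, SE), and the cystine carrier Slc7a11 from 24.7 to 0.611 TPM. Aldh1l2 of the mitochondrial folate pathway fell from 357 to 13.2 TPM, Asns, asparagine synthetase, from 386 to 49.8 TPM, and Trib3, a target of the amino acid response, from 186 to 12.9 TPM. These genes were high in all 3 uninduced libraries and low in all 3 induced ones.

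Genes of ribosome production fell with them. Of 33 genes for nucleolar processing and RNA polymerase I, 28 were lower and none was higher. Nucleolin (Ncl) fell from 627, 762 and 636 TPM to 127, 159 and 154 TPM (log2 change -2.61 ± 0.17, SE), and fibrillarin (Fbl), which methylates ribosomal RNA, from 251 to 87.6 TPM. Of 82 cytosolic ribosomal protein genes 78 were lower. Together they made up 20.6%, 18.8% and 23.1% of TPM in the uninduced libraries, highest in replicate 3, and 13.7%, 12.2% and 12.2% in the induced ones, so that the ranges stayed apart with or without replicate 3. The small nucleolar RNA host genes Snhg1 (-2.73 ± 0.22), Snhg12 (-2.31 ± 0.14) and Gas5 (-1.71 ± 0.17) fell too.

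Genes of protein turnover split by branch. Of 31 constitutive proteasome genes 27 were lower, 2 by more than 2-fold, and none was higher, or 23 lower and 1 higher without uninduced replicate 3. Psmb5, a catalytic subunit, fell from 301, 294 and 276 TPM to 160.1, 157 and 141 TPM (log2 change -1.44 ± 0.15, SE), while Psmb8, the immunoproteasome subunit that can take its place, rose from 0.230, 0.114 and 0.483 TPM to 48.3, 41.3 and 37.999 TPM (6.66 ± 0.44, SE). Psmb5 remained the higher of the pair in every library. Muscle ubiquitin ligase genes rose: Fbxo32 (atrogin-1) from 3.74 to 42.5 TPM, Trim63 (MuRF1) from 2.39 to 22.4 TPM, and Klhl41, a ligase adaptor of the sarcomere, from 0.150 to 223 TPM. The autophagy receptor gene Sqstm1 fell from 3859 to 937 TPM and Map1lc3a rose from 31.9 to 208 TPM. The muscle calpain gene Capn3 rose (3.07 ± 0.22).

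Genes of protein folding moved both ways. Of 15 small and inducible heat shock protein genes 9 were higher and 4 lower, the latter with the cytosolic chaperone gene Hsp90aa1 (-1.44 ± 0.25). The small heat shock protein gene Cryab rose from 94.8, 72.7 and 61.1 TPM to 520.0, 579 and 522 TPM (log2 change 2.31 ± 0.14, SE) and Hspb2 from 12.1 to 74.4 TPM. Hspa5, the main chaperone of the endoplasmic reticulum, fell from 1614, 1951 and 1630.5 TPM to 519, 539 and 563 TPM (-2.14 ± 0.16, SE). In the endoplasmic reticulum branch 9 of 14 genes were lower and none was higher. Of the NRF2 targets, the defence against oxidants, 12 of 13 were lower: Nqo1 fell from 213, 199 and 259.8 TPM to 11.7, 12.4 and 11.4 TPM (-4.72 ± 0.22, SE), Hmox1 from 808 to 90.5 TPM and Gclc from 72.4 to 16.967 TPM. Ferritin light chain (Ftl1), the nuclear-encoded protein-coding gene of highest TPM in uninduced cells, fell from 10644, 9466 and 6609 TPM to 2433, 1912 and 2251 TPM (-2.47 ± 0.16, SE).

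Interferon-response genes were a second set that rose, many of them from near 0, in a culture to which the labels name no interferon. Of 58 tested genes 54 were higher, 47 by more than 2-fold, and 1 was lower. Their median log2 change was 6.63, or 6.22 with genes of no uninduced counts at their bound. The summed level went from 2098, 1934 and 1745 TPM to 20955, 18179 and 18775 TPM. Isg15, a ubiquitin-like protein that interferon induces, was at 4.80, 6.36 and 5.04 TPM and then at 1863, 1501 and 1606 TPM (log2 change 7.81 ± 0.21, SE, adjusted p = 5.1e-13). Ifit1, an RNA-binding effector, went from 0.675, 0.777 and 0.385 TPM to 446, 484 and 442 TPM (9.20 ± 0.19, SE). Of the factors that carry the signal, Irf7 rose from 0.0803 to 254 TPM. Bst2, which tethers budding virus, ended at 2903 TPM and Ifi27l2a at 3339.6 TPM. Among the sensors of foreign nucleic acid, Zbp1 was at least 639-fold higher, Rigi rose from 2.33 to 88.964 TPM and Ifih1 from 0.126 to 15.9 TPM. Cgas, the DNA sensor, was the one that fell, from 9.23, 8.58 and 5.74 TPM to 1.93, 2.01 and 2.35 TPM (-2.28 ± 0.16, SE). Ifitm3 was already at 1291 TPM and rose to 3102 TPM. The leukocyte genes Ptprc, Adgre1 and Cd3e were at 0 in all 6 libraries, and the summed leukocyte marker level was 24.9, 23.6 and 22.041 TPM uninduced and 21.5, 22.3 and 21.988 TPM induced, most of it Cd14.

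The promoters of Ifit1 and Isg15 hold the core of the interferon-stimulated response element (GAAA, any 2 bases, GAAA), in capitals on either strand. Both were chosen after the matches were seen, as genes of this set with more than 1 match.
Ifit1, chr19:34640639-34640868, plus strand: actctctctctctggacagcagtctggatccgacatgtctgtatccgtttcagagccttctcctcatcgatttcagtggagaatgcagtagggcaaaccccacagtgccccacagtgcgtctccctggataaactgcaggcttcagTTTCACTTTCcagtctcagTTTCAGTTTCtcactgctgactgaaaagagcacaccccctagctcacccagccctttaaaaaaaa
Isg15, chr4:156200839-156201068, minus strand: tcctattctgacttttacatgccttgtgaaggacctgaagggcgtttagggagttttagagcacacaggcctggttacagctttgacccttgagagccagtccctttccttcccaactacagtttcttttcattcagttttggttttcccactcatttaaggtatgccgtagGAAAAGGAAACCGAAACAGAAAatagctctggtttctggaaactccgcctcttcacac
In Ifit1 the matches begin 104 and 85 bases before the start and lie on the opposite strand. In Isg15 3 overlapping matches begin 78, 72 and 66 bases before it. The element was in 16 of 42 promoters of the interferon list (38.1%), in 6.21% of the genes higher by more than 2-fold and in 3.23% of all tested genes with a promoter in the table.

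Genes of antigen presentation, complement and chemokines rose beside them. All 14 tested class I genes were higher. B2m, the light chain of class I molecules, rose from 651, 706 and 823 TPM to 8080.5, 7338 and 7011 TPM (log2 change 2.94 ± 0.22, SE) and was the protein-coding nuclear gene of highest TPM in the induced group. The heavy chain gene H2-K1 rose from 63.4 to 733 TPM and the loading factor Tapbp from 11.8 to 526 TPM, with the caution that class I heavy chain genes are near copies of each other. All 9 complement genes were higher, with C3 from 4.45, 3.22 and 1.35 TPM to 925, 989 and 1085 TPM (8.01 ± 0.21, SE) and C1s1 from 24.5 to 960.1 TPM. Of 15 chemokine and cytokine genes 14 were higher: Ccl2 rose from 70.6 to 2121 TPM and Cxcl12 from 2.38 to 663 TPM. Csf1, a macrophage growth factor, fell (-1.27 ± 0.17); uninduced replicate 3, at the last of 433, 419 and 188 TPM, lay within the induced range of 198, 180.3 and 206 TPM.

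The matrix list held 51 genes higher and 3 lower of 61, with 44 higher by more than 2-fold and a median log2 change of 2.42. Col3a1, a fibrillar collagen, rose from 321, 314 and 159 TPM to 2959.7, 2852 and 3044 TPM (log2 change 3.08 ± 0.15, SE, adjusted p = 4.4e-10). Col1a1 rose from 2.45 to 167 TPM and Col6a1, of the matrix around fibres, from 23.7 to 918 TPM. The matricellular gene Postn rose from 1.65, 1.29 and 1.71 TPM to 566, 576 and 616 TPM (8.12 ± 0.21, SE), the proteoglycan gene Dcn from 12.1 to 633 TPM and the basement membrane gene Nid2 from 1.48 to 222 TPM. Falling were Col18a1 (-2.02 ± 0.17), the protease inhibitor gene Timp3 (-2.75 ± 0.12) and Spp1 (-0.57 ± 0.20). Without uninduced replicate 3 Spp1 was at -0.24 and no longer called (edgeR adjusted p = 0.068), nor was it without induced replicate 2 or 3, with library size scaling or in the fit on the 6 control libraries alone (-0.56, 0.072). The fibroblast markers used here share Col1a1, Dcn and Pdgfra with this pattern. Of 7 listed, 5 were tested and all of these were higher, with a summed level of 122, 101 and 134 TPM uninduced and 4947, 4203 and 4570.3 TPM induced, while Thy1 and Tcf21 were at 0 throughout. Their part in the matrix result was not tested.

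Genes of the smooth muscle program, which serum response factor and its cofactors drive, all rose (8 of 8). Acta2, smooth muscle actin, went from 9.86, 8.54 and 4.45 TPM to 2099, 2377 and 2000.1 TPM (log2 change 7.76 ± 0.16, SE), and Tagln from 0.422 to 148 TPM. The 3 alpha actins made in the induced cells thus stood at 5519 (Acta1), 2159 (Acta2) and 578 (Actc1) TPM. Desmin (Des), the muscle intermediate filament, rose from 134 to 778 TPM. Among the targets of YAP and TEAD, Ankrd1 rose (1.92 ± 0.18) and Crim1 fell (-0.64 ± 0.15), with 6 of 11 higher. Of 17 integrin genes 13 were higher: Itga7, the laminin receptor of muscle, rose from 50.8 to 331 TPM and Itgb1bp2 (melusin) from 0.0513 to 89.1 TPM, whereas Itga6 fell (-1.35 ± 0.17).

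Among growth factor signals 56 of 93 genes were higher and 16 lower. The imprinted neighbours Igf2, a growth factor that muscle cells make as they differentiate, and H19, a noncoding RNA, both rose: Igf2 from 0.960, 0.655 and 0.465 TPM to 84.4, 99.9 and 105 TPM (6.73 ± 0.23, SE) and H19 from 116, 116 and 87.4 TPM to 4144, 5139 and 4772 TPM (4.99 ± 0.19, SE). Igfbp5, a binding protein of that axis, was at 289 and 454 TPM (edgeR adjusted p = 0.14, and 0.046 when scaled by library size), and Igfbp2 fell (-1.55 ± 0.14). Activin subunits went apart, Inhba down from 47.4, 60.966 and 37.3 TPM to 13.957, 14.8 and 16.7 TPM and Inhbb up from 14.7, 13.8 and 9.83 TPM to 96.9, 105 and 108 TPM. The EGF family ligand Areg fell from 95.1, 104 and 63.2 TPM to 1.17, 1.53 and 1.27 TPM (-6.43 ± 0.21, SE) and Ereg from 28.1 to 6.06 TPM, while their receptor gene Egfr rose from 2.52 to 14.3 TPM. In Notch signalling the ligand Jag1 fell (-2.12 ± 0.18), Dll1 (2.38 ± 0.19) and Notch3 (1.55 ± 0.20) rose, and the effector Heyl, with no uninduced counts, was at least 29.6-fold higher. Immediate early genes also split: Fos rose from 10.1, 5.23 and 4.19 TPM to 468, 293 and 387 TPM (5.47 ± 0.35, SE) and Egr1 from 30.012 to 369 TPM, whereas Fosl1 (-2.35 ± 0.17) and Atf3 (-3.74 ± 0.11) fell.

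Cholesterol genes rose in 10 of 13 cases with none lower, among them Insig1 from 8.13 to 56.3 TPM. Of fatty acid synthesis genes 4 of 11 were higher, a share near the 33.2% of all genes tested. Among them Scd1 rose by a log2 change of 1.20 ± 0.13 (SE), while Acly was called lower. Genes of the circadian clock moved both ways (8 higher, 6 lower of 17), as did all genes tested (33.2% higher, 30.9% lower). The repressor gene Ciart fell from 53.1 to 5.85 TPM and the output gene Dbp rose (1.90 ± 0.16). The libraries of a group stand at 1 harvest each, so the phase of the clock and the induction cannot be told apart.

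Chromatin genes fell more often than they rose, and RNA-binding genes moved both ways. In the chromatin list 23 of 37 genes were lower and 5 higher. The architectural protein gene Hmga1 fell from 801, 708 and 502 TPM to 105, 99.6 and 93.3 TPM (log2 change -3.11 ± 0.16, SE) and the histone variant gene H2az1 from 1773 to 351 TPM. Ezh2 of Polycomb fell (-1.26 ± 0.14) and its paralog Ezh1 rose (0.78 ± 0.11). The linker histone gene H1f2 rose from 31.8 to 233 TPM. Histone RNAs without a poly(A) tail are poorly caught by the selection used, so their level counts only the tailed form. Of 27 genes for RNA-binding proteins 7 were higher and 14 lower, with a median log2 change of -0.35. The splicing factor gene Rbfox1 had no uninduced counts and was at least 21.2-fold higher, and Rbm24 rose from 0.0735 to 28.3 TPM, while Ptbp1, which keeps muscle exons out, fell (-0.94 ± 0.15). The RNA decay factors Zfp36 (3.55 ± 0.16) and Zfp36l1 (2.64 ± 0.12) rose. The nuclear lamina gene Lmnb1 fell (-1.13 ± 0.11) and Tmem38a, a channel of the sarcoplasmic reticulum and nuclear membrane, rose from 4.73 to 133 TPM. Of 1850 tested long noncoding RNA genes 679 were higher and 262 lower, against 4208 and 4252 of 12611 protein-coding genes.

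Some genes crossed between absent and present. With at most 3 counts over the 3 uninduced libraries and at least 5 CPM induced, 134 genes were switched on, 126 of them protein-coding and 18 in the sarcomere list. They took 1.17% ± 0.0536 of TPM in the induced libraries (SD, n = 3). The reverse held for 10 genes. Ostn, which encodes the secreted peptide osteocrin, was at 55.5, 52.1 and 74.9 TPM uninduced and had no counts induced, at least 346-fold lower. Apart from switching, the carbonic anhydrase gene Car6 fell from 209, 210.4 and 147 TPM to 0.126, 0.562 and 0.396 TPM (-9.39 ± 0.35, SE) and Avil, of the villin family of actin proteins, from 148, 142 and 66.8 TPM to 0.234, 0.438 and 0.633 TPM (-8.54 ± 0.26, SE). Outside the muscle lists Apod, the gene of apolipoprotein D, had 2 counts uninduced and 301, 224 and 254 TPM induced, 5296-fold (counting interval at 95%: 1466 to 43738) more by summed counts. The interferon-induced gene Oas2 was at least 1151-fold and the GTPase gene Tgtp1 at least 687-fold higher, the latter a gene with a near copy. Tmsb10, an actin-binding peptide gene, rose from 1615 to 6702 TPM to become one of the 10 genes of highest TPM.

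The deposited average transcript length of a gene moves when the mix of its transcripts does. Among 8902 genes with at least 5 TPM in both groups, limma called 23 longer (0.258%) and 16 shorter (0.18%) after induction, at an adjusted p under 0.05 and a log2 length change of at least 0.2. Ncam1, the neural cell adhesion molecule of muscle, fell from 5316, 5329.7 and 5811 bases to 3723, 3707 and 3662 bases (log2 change -0.55, adjusted p = 0.005) while its level rose (1.23 ± 0.13). Pdlim7, a LIM protein of the cytoskeleton, shortened from 1347, 1423 and 1315 bases to 876, 900.1 and 852 bases, and its relative Pdlim5 of the Z-disc from 3789, 3865 and 3879 bases to 2449, 2201 and 2541 bases. In all 3 the groups did not overlap. Of the tropomyosins, Tpm1 (-0.31) and Tpm3 (-0.28), both named after their values were seen, became shorter and Tpm2 longer (0.42). Among the longest gains were Ap3m1 (0.70), Cyrib (0.64) and Zbtb44 (0.57). Of the named ones, Ncam1, Pdlim7, Cyrib and Tpm2 kept their call under each alternative, and each of the others lost it in at least 1 fit that left out a library. Without induced replicate 2 the calls numbered 179 longer and 44 shorter, so these counts rest on single libraries.

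**Figure D4:**
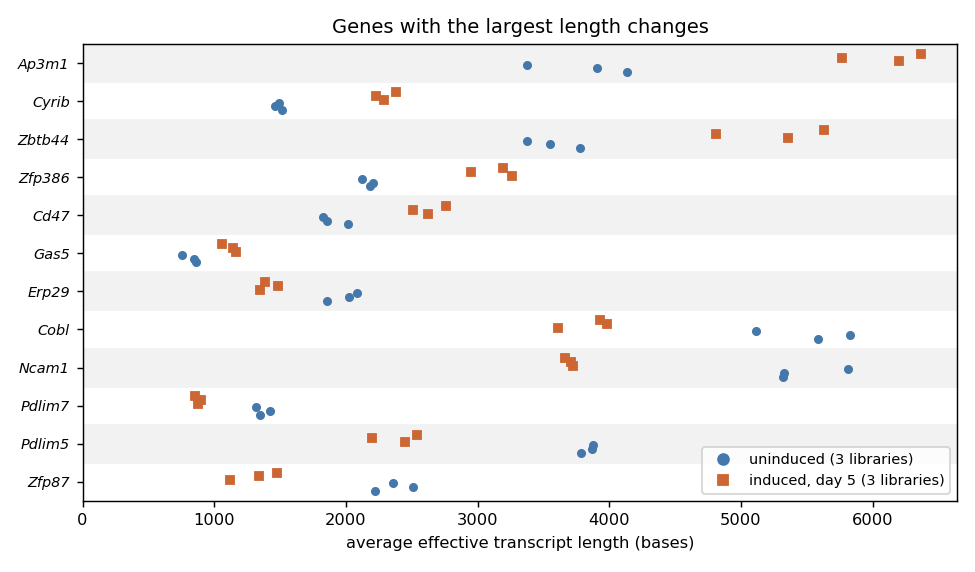
Average effective transcript length in bases for the 12 genes with the largest length changes, in each uninduced (circles) and induced (squares) library. The 6 lower genes, from Zfp87 to Erp29, became shorter and the 6 upper ones longer, with groups that do not overlap.

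The response in cells with the Zfp143 siRNA was used to ask which of these changes depend on the siRNA; the comparisons share no libraries. By edgeR's test of the interaction, 3375 genes (22.5%) responded differently to induction under the control siRNA. Of the 9636 genes called in control cells 2512 (26.1%) were among them, and of the 3818 that changed by more than 2-fold 3681 (96.4%) had the same sign in cells with the Zfp143 siRNA. Mitosis genes differed in nearly all cases: 48 of 50 were called, all with the lower response in control cells. Ccnb1 fell with the control siRNA (-1.93) and had a log2 change of 0.44 in cells with the Zfp143 siRNA, an interaction of -2.38 (SE 0.31, adjusted p = 1.0e-04). Mki67, higher by 0.80 in control cells, was higher by 2.38 in cells with the Zfp143 siRNA. Cdkn1a, at -0.30 here, was at -2.01 there (1.70, SE 0.18, adjusted p = 1.7e-05). In the sarcomere list the log2 change was called larger in control cells for 25 of 54 genes and smaller for 1, Flnc. Among the former was Tnnt2 with a log2 change of 6.89 against 2.71 (interaction 4.18, SE 0.21, adjusted p = 3.6e-08). In the interferon list the change was larger in control cells for 24 of 58 genes and smaller for 2, and Ifit1 was 9.20 against 5.89. Of 29 glycolysis and glycogen genes the change was larger in control cells, as a signed value, for 19 and smaller for 2. The oxygen sensor gene Egln3 rose with the control siRNA (0.76) and had a log2 change of -2.48 in cells with the Zfp143 siRNA, and Plau, urokinase, was 2.51 against -0.67. None of the 31 proteasome genes and none of the 82 ribosomal protein genes was called by that edgeR test. The Zfp143 level itself differed between the siRNAs in uninduced cells, 30.3 against 11.4 CPM, whereas in induced cells it was at 19.7, 19.3 and 19.3 CPM with the control siRNA and at 14.7, 16.8 and 19.7 CPM with the Zfp143 siRNA, groups that overlap through replicate 3 of the latter.

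**Figure D5:**
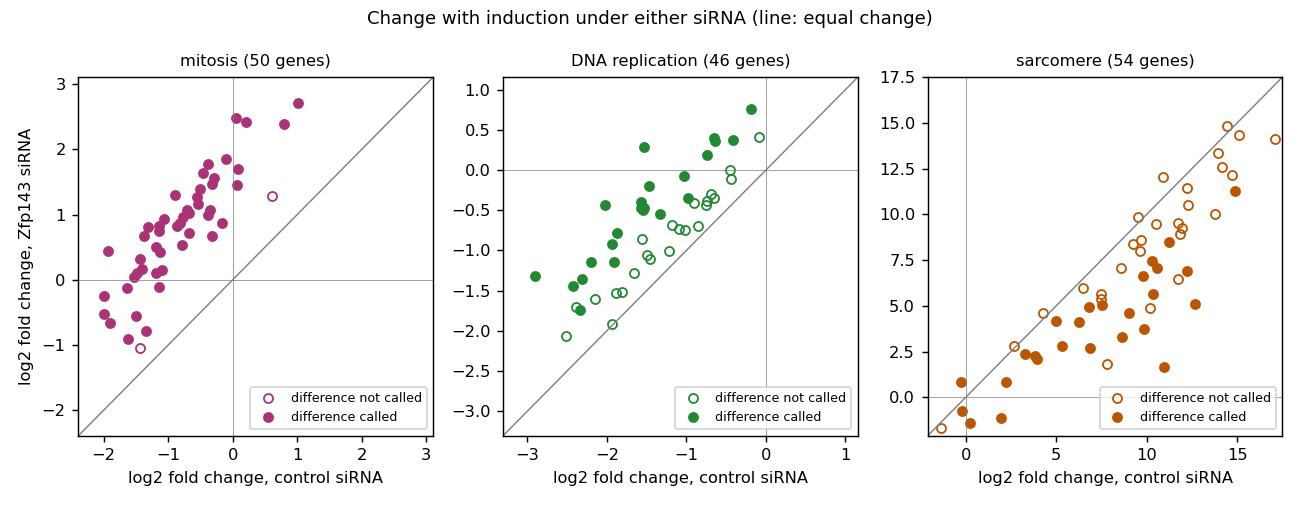
Log2 fold change with induction under the control siRNA (horizontal) and the Zfp143 siRNA (vertical) for the genes of 3 lists; filled points have a called difference, and the line marks equal change. All 50 mitosis genes lie above the line, and 25 sarcomere genes with a called difference lie below it, where fitted changes of genes without uninduced counts rest on the prior count and are no bounds.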

How the data were processed

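Polyadenylated RNA was measured in 12 libraries, 3 in each of 4 groups. The submitters' processing notes name fastp 1.0.1, STAR 2.7.11b and Salmon as tools, and GRCm39 as the genome build. Salmon's version and the gene annotation's release were not given in the sources used here. In the authors' file the deposited table gives for each gene the estimated count that the authors summed over transcripts, TPM (held as a score column, which the authors derived from counts and lengths) and the average transcript length in bases. Its 12 deposited FPKM columns were not used. A pair of letters is transposed in the column names of 2 induced knockdown libraries, which were taken as the libraries they otherwise match. Of 78810 lines 535 repeated a gene ID and were dropped.

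Estimated counts were rounded and genes kept with filterByExpr (minimum count 10, total 15). 1 model with 4 group means was fitted to all 12 libraries with TMM factors and edgeR 4.0.16 (robust quasi-likelihood, glmTreat against a fold of 2; R 4.3.3), leaving 8 residual degrees of freedom. P-values were adjusted by Benjamini-Hochberg over all genes tested, and calls need an adjusted p under 0.05. The test was fitted with limma 3.58.1 for log2 average length. Alternatives were DESeq2 1.42.0, limma-voom, other scalings and filters, a length offset, only the 6 control libraries, a replicate block and left-out libraries. The scripts were tested on simulated data.

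Named are lead genes of the 34 lists, members of smallest p in each role, the largest changes, the genes of highest TPM, both genes of 36 pairs, the largest length and siRNA differences and genes switched on or off. The members and lists were chosen with earlier results of these data known. Promoters are from RefSeq (GRCm38.p6): 10384 of the 15030 tested genes matched by symbol. Results of a few single genes are not reported here.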

Additional observations from a re-analysis of the deposited data

Results flagged for a closer look

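For 36 of the 232 genes named above and tested, the response to induction differed by more than 2-fold between the control and the Zfp143 siRNA (edgeR glmTreat on the interaction, adjusted p under 0.05), out of 515 such genes among all 15030 tested. Values below are the log2 change with the control siRNA minus that with the Zfp143 siRNA, so that a positive value means a larger rise or a smaller fall in control cells. Of the 36, 31 were positive and 5 negative.

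For genes of the sarcomere, excitation-contraction coupling, fusion and glycogen or glycolysis lists, and for Tmem38a, the differences were 5.34 for Tnni1, 4.37 for Pygm, 4.22 for Mymk, 4.20 for Casq2, 4.18 for Tnnt2, 3.68 for Pgam2, 3.59 for Acta1, 3.54 for Tnnt1 and 3.13 for Atp2a1. They were 2.74 for Tnnt3, 1.87 for Actn3, 1.84 for Tmem38a and 1.52 for Tpm2. Each of these genes also had a positive log2 change in cells with the Zfp143 siRNA, 6.89 for Tnni1 and 2.01 for Pygm. Some of the differences rest on few counts over the uninduced control libraries, 4 for Tnni1 and 7 for Acta1. The SEs of these differences were 0.68 and 0.86. Of the smooth muscle and YAP genes, Tagln differed by 4.02, Acta2 by 2.48 and Ankrd1 by 2.09.

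The interferon-response genes Zbp1 (5.62), Ifit1 (3.30), Isg15 (2.41) and Bst2 (2.09) had the larger change in control cells. The value of Zbp1, which had no counts in uninduced control cells, rests on the prior count of the fit and is no bound. Of stress and signalling genes the difference was 3.65 for Fos, 3.24 for Egln3, 3.18 for Plau, 3.02 for Cryab, 2.57 for Hes1, 1.89 for Hspb2 and 1.85 for Ereg. It was 1.79 for Hmox1, 1.77 for Zfp36, 1.70 for Cdkn1a and 1.54 for Acadl. Cryab, Hes1, Plau and Egln3 rose in control cells while their log2 changes in cells with the Zfp143 siRNA were -0.71, -0.25, -0.67 and -2.48.

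The 5 negative values were those of Ccnb1 (-2.38), Lmnb1 (-2.14), Top2a (-1.77), Ccnb2 (-1.70) and Igfbp5 (-1.68). Lmnb1 and Top2a fell in control cells and had log2 changes of 1.01 and 1.06 in cells with the Zfp143 siRNA.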

How the results depend on the processing

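Scaling, filter, test, length offset, model and left-out libraries were varied one at a time. Genes called higher numbered between 4670 and 5715 over these settings, and between 4689 and 5078 with a control library left out, against 4992. Genes called lower numbered 3652 to 4839, and 4214 to 4661 with a library left out, against 4644. Past 2-fold the ranges were 2350 to 2801 higher and 997 to 1437 lower. Genes with a different response between the siRNAs numbered 3184 to 3978, and 2506 to 4750 with a library left out, the last without uninduced control replicate 3. Length calls were the least stable: 5 to 179 longer and 2 to 44 shorter with a library left out. Muscle shares rose by more than 10 points in 14 pairs with CPM in place of TPM and in 15 to 16 with a library left out. Of 232 named genes, 222 kept direction and side of the threshold in all 14 alternatives. The exception in sign was Tpm4, whose log2 change became 0.11 with library size only and ran from -0.27 to 0.19 with a library left out, the last without uninduced control replicate 3; the cause was not tested.

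Same-numbered uninduced and induced control libraries, after removal of group means, correlated at -0.008, 0.021 and -0.035. Those with different numbers correlated at -0.072 to 0.056. With 3 libraries per group, such correlations cannot decide whether equal numbers mark libraries that were handled together. With a replicate block 5079 genes were called higher and 4671 lower, and the longer transcripts numbered 13.

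Depth limits genes of few counts: folds from groups without counts are bounds against 3 counts per library, and intervals cover counting error only. Reads shared by near copies among myosins, actins, class I genes and mitochondrial pseudogenes cannot be told apart.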

Other observations

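Markers of other kinds of cell that are no part of the comparisons above had these values. Krt8, a keratin of simple epithelium, had no counts uninduced and 7.89, 6.9958 and 8.42 TPM induced, at least 48.7-fold higher, while Epcam had no counts in the 6 libraries. Tubb3, a neuronal tubulin, fell from 9.23, 8.26 and 4.67 TPM to 0.205, 0.205 and 0.290 TPM (log2 change -5.38 ± 0.35, SE), and Elavl4 had no counts. Tenm4, in the list of reserve and satellite cell markers, fell from 6.76, 6.14 and 2.41 TPM to 0.0748, 0.0902 and 0.108 TPM (-6.23 ± 0.33, SE), whereas Cd82 of the same list rose from 52.2 to 205 TPM. The inactive X chromosome RNA Xist, present in all 6 libraries of this mouse line, was at 393, 516 and 204 TPM uninduced and 121, 162 and 170.1 TPM induced (-1.59 ± 0.23, SE), with uninduced replicate 3 nearest to the induced libraries.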
